A study of Mus musculus with 18 samples.

Results

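The 38 genes described here encode aminoacyl-tRNA synthetases and the 3 scaffold proteins of the multi-synthetase complex. All 38 were found among the 55291 genes of the count table by their symbols (Mars is listed as Mars1). The scaffold proteins are Aimp1, Aimp2 and Eef1e1, the last also known as AIMP3. The list holds 8 synthetases that sit in the complex, 12 cytosolic synthetase genes outside it and 15 mitochondrial ones. It is not the full mitochondrial set, since Pars2 was kept with the genes of other aminoacyl-tRNA formation. Aimp1 was chosen by its higher level in knockout oocytes at the GV stage, so its values in that comparison, and in every comparison that uses the same GV libraries, are a description with no test. The other members were taken as the family to which Aimp1 belongs.

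RNA was measured in oocytes of 5-week-old female mice by Smart-seq2, which copies RNA from its poly(A) tail, with 5 oocytes and ERCC spike-in RNAs in each library. All mice were homozygous for a floxed allele of Vps34 (Pik3c3), the class III phosphatidylinositol 3-kinase. The ZcKO mice also carried Zp3-Cre, a transgene expressed in growing oocytes, and the controls carried no Cre. GV oocytes, which are fully grown and still have an intact nucleus (the germinal vesicle), were taken 46 h after PMSG. MII oocytes, which are ovulated and arrested at metaphase II, were taken 14 h after hCG. The 4 groups, control GV, ZcKO GV, control MII and ZcKO MII, have 3 libraries each. The columns of the table carry the letter C or T, read as control and ZcKO, while the sample titles use neither letter, and every direction between genotypes rests on this reading.

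An aminoacyl-tRNA synthetase joins an amino acid to its tRNA, and the ribosome depends on this step for every codon it reads. Animal cells have separate nuclear genes for most of the cytosolic and mitochondrial enzymes, while the glycine and lysine enzymes of both compartments come from Gars and Kars. Several cytosolic enzymes are held together by AIMP1, AIMP2 and EEF1E1 in a large complex, and AIMP1 is also known as a secreted cytokine precursor. A growing oocyte stores mRNA, and during maturation, when transcription is silent, stored mRNAs are degraded or kept and the poly(A) tails of many are shortened or lengthened.

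Gene totals were 2609783 to 4696626 counts per library, so 1 count equals 0.213 to 0.383 CPM (counts scaled to a common library total of 1e6). The floxed gene Pik3c3 had 25.8 to 35.5 CPM in control GV and 1.56 to 2.67 CPM in ZcKO GV libraries, and 10.6 to 21.4 against 2.42 to 5.36 CPM at MII. Summed oocyte markers (9 genes such as the zona pellucida genes) were 31360 to 45490 CPM at GV and 16450 to 20010 CPM at MII. The 15 cumulus and granulosa cell markers together had 74.7 to 121 CPM at GV and 140 to 661 CPM at MII. Tnfaip6 and Ptx3, made by expanded cumulus cells, were at 0 in every GV library and present at MII, and ZcKO MII library 1 held the highest sum. Blood and immune markers (7 genes) summed to 47.9 to 80.5 CPM at GV, where C1qb alone had 47.3 to 78.6 CPM, and to 5.13 to 14.3 CPM at MII, with Hbb-bs at 0 in all libraries. ERCC reads took 7.09 to 18.7% of counts at GV and 29.3 to 39.9% at MII. In such pools, fewer cells of a type and less RNA per cell cannot be told apart, and neither can a lost transcript and one whose tail became too short to be primed.

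Promoters of 30 members were found in the RefSeq table (GRCm38.p6, 250 bases before to 50 after the start). They were searched on both strands for the C/EBP-ATF element, the site of the amino acid response factor ATF4, because several synthetase genes are known ATF4 targets. The letters TGATGNAA were found in 5 of the 30 (16.67%), against 4.511% of 27025 genes, and the stretches with the match in capitals are shown since these 5 genes can be followed through the results. Aars holds 2 matches, of which the first is shown, and its RefSeq start did not match the start of a GENCODE vM21 transcript.
Iars, chr13:49682111-49682170, plus strand: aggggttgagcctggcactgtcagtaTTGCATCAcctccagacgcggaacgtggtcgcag
Aars, chr8:111033704-111033763, plus strand: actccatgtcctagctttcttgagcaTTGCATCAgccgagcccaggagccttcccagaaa
Gars, chr6:55037945-55038004, plus strand: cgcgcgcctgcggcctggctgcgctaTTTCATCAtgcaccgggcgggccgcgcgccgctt
Tars, chr15:11399640-11399699, minus strand: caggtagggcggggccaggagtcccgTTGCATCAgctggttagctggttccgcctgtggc
Yars, chr4:129189880-129189939, plus strand: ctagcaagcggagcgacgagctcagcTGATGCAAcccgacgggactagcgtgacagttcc
The capitals read TTGCATCA or TTTCATCA where the match lies on the other strand. An E-box, CACGTG, was also found in 5 of the 30 (16.67%), against 8.093% of genes. A match in these windows is a description of letters and not a measured binding site.

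The gene whose level chose it, Aimp1, lies on the minus strand of chr3:132660499-132684370 (GRCm38). RefSeq gives it 2 promoters, and neither motif was found in either. Both are printed because they lie on either side of the start of Tbck, a neighbour on the plus strand; the second overlaps the promoter of Tbck (chr3:132683894-132684193) and the first does not.
Aimp1, chr3:132684341-132684640, minus strand: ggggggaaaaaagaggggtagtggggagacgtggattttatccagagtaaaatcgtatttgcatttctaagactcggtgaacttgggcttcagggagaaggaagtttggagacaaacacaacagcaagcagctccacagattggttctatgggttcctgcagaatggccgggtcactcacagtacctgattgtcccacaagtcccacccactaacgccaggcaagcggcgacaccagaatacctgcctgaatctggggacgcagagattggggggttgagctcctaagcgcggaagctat
Aimp1, chr3:132683830-132684129, minus strand: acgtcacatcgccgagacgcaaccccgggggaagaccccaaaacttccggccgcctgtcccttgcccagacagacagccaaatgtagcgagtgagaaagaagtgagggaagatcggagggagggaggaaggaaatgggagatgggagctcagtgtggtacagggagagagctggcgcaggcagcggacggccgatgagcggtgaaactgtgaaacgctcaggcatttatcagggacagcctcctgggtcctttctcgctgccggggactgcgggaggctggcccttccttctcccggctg
Exons of Aimp1 and Tbck share 163 bases, 2.91% of the Aimp1 exon bases, on opposite strands. The strand setting of the counting is not given in the sources used here, so reads from the shared bases cannot be assigned with certainty.

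Scaffold transcripts differed from each other in level and in course. Aimp1 had 17, 22 and 35 counts in the control GV libraries and 91, 74 and 78 in the ZcKO GV libraries. In CPM these were 5.75, 5.81 and 7.45 in control GV and 28.3, 20.4 and 25.99 in ZcKO GV, so that the lowest ZcKO library stood well above the highest control library. The log2 difference was 1.91 (SE 0.27, n = 3 per group), and this is the difference that chose the gene. At MII the Aimp1 values of the genotypes overlapped, at 8.996, 14.5 and 8.15 CPM in control and 12.6, 9.38 and 5.703 CPM in ZcKO, with a log2 difference of -0.22 (SE 0.37). From GV to MII the Aimp1 log2 change was 0.85 (SE 0.33) in control and -1.30 (SE 0.31) in ZcKO, so the groups moved to a common level from opposite sides. Scaled to the spike-ins, the control change was -0.90, so its sign depends on the scaling.

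Tbck, which encodes a TBC-domain protein, was counted beside Aimp1 because of the shared exon bases. Its values were 12.9, 9.24 and 16.2 CPM in control GV and 12.8, 16.5 and 24.3 CPM in ZcKO GV libraries, which overlap. The Tbck log2 difference at GV was 0.42 (SE 0.30), smaller than that of Aimp1.

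Aimp2, which holds the complex together, had 26.04, 14.8 and 23.2 CPM in control GV and 2.45, 4.53 and 2.72 CPM in control MII libraries. In ZcKO it had 10.6, 19.3 and 41.0 CPM at GV and 3.06, 2.42 and 4.99 CPM at MII. No MII library reached any GV library of its genotype. The log2 change was -2.58 in control (SE 0.44, edgeR quasi-likelihood test with Benjamini-Hochberg adjustment, adjusted p = 5.77e-05) and -2.58 in ZcKO (SE 0.45, edgeR adjusted p = 7.04e-05). Exons of Aimp2 share 29.4% of their bases with Eif2ak1 on the opposite strand, so its counts are uncertain. Eef1e1 had the highest level of the 3 scaffold genes, 185 ± 27.6 CPM in control GV, 166 ± 53.2 in ZcKO GV, 95.9 ± 17.3 in control MII and 109 ± 16.8 in ZcKO MII (mean ± SD, n = 3). It fell in control, by 0.81 on the log2 scale (SE 0.21, edgeR adjusted p = 0.00248), while in ZcKO its change was -0.45 (SE 0.21, edgeR adjusted p = 0.0715) and the groups overlapped.

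**Figure D1:**
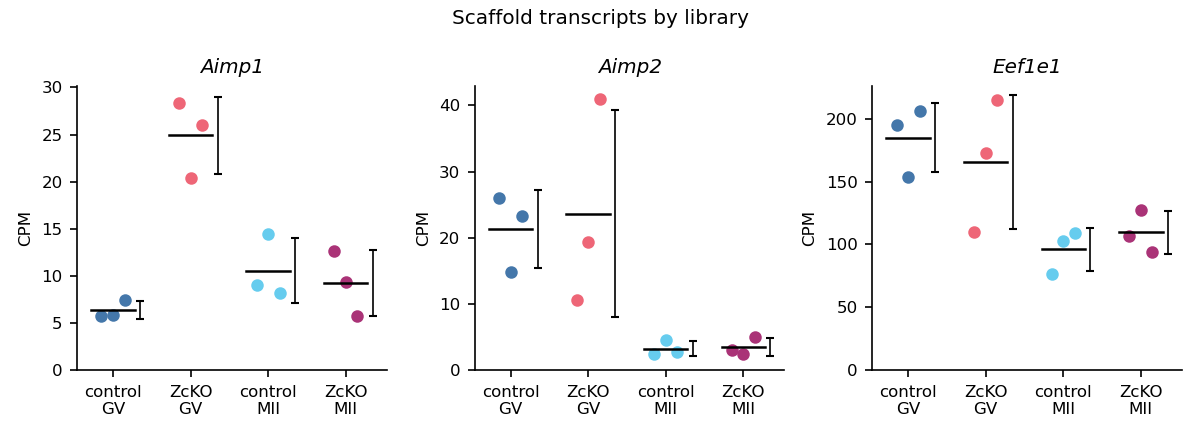
Level of the 3 scaffold transcripts in each library (vertical axis, CPM) for the 4 groups (horizontal axis); points are libraries, horizontal lines group means and bars 1 SD of 3 libraries. Aimp1 is high in ZcKO GV alone among the 4 groups, at 20.4 to 28.3 CPM, and Aimp2 is at 4.99 CPM or less in all MII libraries.

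Levels between genes were compared per kilobase of the principal transcript of GENCODE vM21. In control GV oocytes the highest were Farsb, the beta subunit of the phenylalanine enzyme, at 119 ± 26.2 CPM per kb, Qars (glutamine) at 97.4 ± 8.998, Rars (arginine) at 94.6 ± 17.3 and Eef1e1 at 72.4 ± 10.8. The first 3 lay within each other's spread. Aimp1 stood at 5.63 ± 0.86 CPM per kb in control GV and at 22.1 ± 3.62 in ZcKO GV, where Aimp2 stood at 19.9 ± 13.2. In control GV 18 members were at 10 CPM per kb or more, 14 between 1 and 10 and 6 below 1. Of the 15 mitochondrial synthetases, Lars2 and Fars2 were the highest at this stage, at 39.7 ± 13.8 and 38.1 ± 2.99 CPM per kb. The part of ribosomal RNA in the Lars2 counts was not settled, as given below, so the place of Lars2 is uncertain. At control MII Farsb was still the highest, at 135 ± 23.3 CPM per kb, and it was followed by Eprs, the glutamate and proline enzyme, at 64.2 ± 2.02 and Nars (asparagine) at 56.6 ± 7.28, while Qars stood at 14.3 ± 9.11.

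The change from GV to MII was the largest difference within the family. With Aimp1 left out, 34 members passed the filter on low counts, and in control 3 of these rose, 19 fell and 12 did not pass the test. In ZcKO 3 rose, 18 fell and 13 did not pass. The called share was 64.7% in control and 61.8% in ZcKO. Among all 11607 genes tested, 63.9% were called in control and 63.5% in ZcKO, so the share of members called was near that of all genes. The directions were split unevenly: 8.82% of the 34 members rose in control and 8.82% in ZcKO, against 30.1% and 29.5% of all genes. Members that fell made up 55.9% in control and 52.9% in ZcKO, against 33.8% and 34.0% of all genes. The median log2 change of the 34 was -0.77 in control and -1.09 in ZcKO, against 0.0056 and -0.04 over all genes. Of the 22 calls in control and the 21 in ZcKO, 20 were shared, all in the same direction (90.9% of the control and 95.2% of the ZcKO calls).

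These changes are relative to the average transcript, since the counts were scaled by TMM (trimmed mean of M-values). Scaled to the ERCC spike-ins instead, the median log2 change of all genes was -1.72 in control and -2.37 in ZcKO, and the members called, Aimp1 included, were 0 higher and 31 lower in control and 0 higher and 35 lower in ZcKO. A member said to have risen therefore rose relative to other transcripts. With spike-in scaling 8206 of all 11607 genes were called in control, so nothing particular to the members is read from the 31 and 35 calls. The cumulus and granulosa markers given above were higher at MII as a sum in CPM, but not each of them. Of 11 tested in control, 6 rose, 1 (Hsd17b1) fell and 4 did not pass the test. In ZcKO 8 rose, 0 fell and 3 did not pass. The part of these cells in the changes of the members was not tested.

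**Figure D2:**
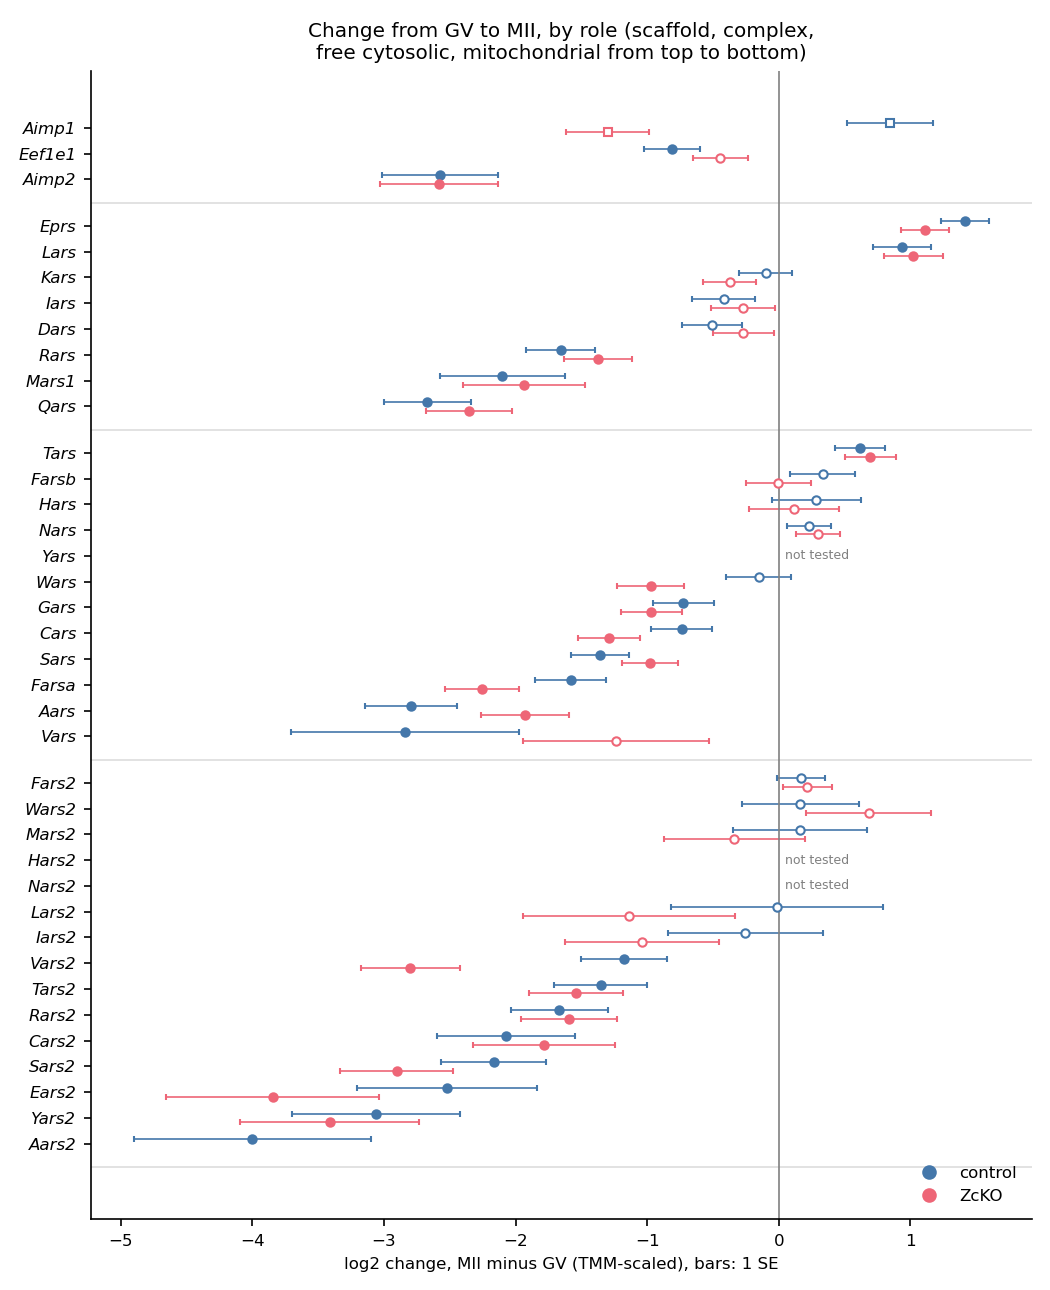
Log2 change from GV to MII (horizontal axis, TMM-scaled, bars 1 SE) of each member (vertical axis) in control and ZcKO, 3 libraries per group. Filled circles passed the test at adjusted p under 0.05 and open squares mark Aimp1, given without a test; most symbols lie left of 0 in both genotypes, Eprs, Lars and Tars lie right of 0 under this scaling and left of it when scaled to spike-ins, and Aars2 in ZcKO is not drawn because its MII libraries are all at 0.

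Within the complex, the 8 synthetases moved apart: in each genotype 2 rose, 3 fell and 3 (Dars, Iars and Kars) did not pass the test. The called share of 62.5% was near the 63.9% (control) and 63.5% (ZcKO) of all genes. Eprs had 160, 96.0 and 138 CPM in control GV and 323, 304 and 318 CPM in control MII libraries. In ZcKO Eprs had 140, 153 and 174 CPM at GV and 280, 320 and 309 CPM at MII, so the stages did not overlap in either genotype. The Eprs log2 change was 1.41 in control (SE 0.18, edgeR adjusted p = 2.88e-06) and 1.11 in ZcKO (SE 0.18, edgeR adjusted p = 3.99e-05) with TMM, and -0.31 and -1.22 when scaled to spike-ins. Lars, the leucine enzyme and also a leucine sensor for mTORC1, had 29.1, 18.2 and 33.2 CPM in control GV and 46.1, 53.4 and 40.2 CPM in control MII. In ZcKO the Lars values were 28.6, 28.9 and 32.0 CPM at GV and 51.7, 55.4 and 57.4 CPM at MII. Each Lars MII library lay above the GV libraries of its genotype, with log2 changes of 0.94 (SE 0.22, edgeR adjusted p = 0.00131) and 1.02 (SE 0.22, edgeR adjusted p = 0.000647), which became -0.83 and -1.32 with the spike-ins.

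Qars, Rars and Mars1 fell in both genotypes. Qars had 264, 253 and 301 CPM in control GV and 12.8, 63.4 and 43.7 CPM in control MII libraries. In ZcKO Qars had 256, 284 and 398 CPM at GV and 57.1, 59.9 and 48.5 CPM at MII, again with no overlap. The Qars log2 change was -2.67 in control (SE 0.33, edgeR adjusted p = 2.79e-06) and -2.35 in ZcKO (SE 0.33, edgeR adjusted p = 9.34e-06). Rars fell by 1.66 in control (SE 0.26) and fell by 1.37 in ZcKO (SE 0.26) on the log2 scale. Mars1, the methionine enzyme, had log2 changes of -2.10 (SE 0.47) and -1.93 (SE 0.46).

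A ratio of counts of a pair of genes in the same library does not depend on how libraries are scaled. The pair Qars and Eprs was chosen after its values were seen, and is given with no test. The Qars to Eprs ratio was 1.66, 2.63 and 2.17 in control GV and 1.82, 1.85 and 2.29 in ZcKO GV, so Qars had the more counts in all 6. At MII the ratio was 0.0397, 0.209 and 0.138 in control and 0.204, 0.188 and 0.157 in ZcKO, with Eprs ahead in all 6.

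Of the 12 cytosolic synthetase genes outside the complex, 11 passed the filter (Yars did not), and in each genotype 1 rose, 6 fell and 4 did not pass the test. The called share of 63.6% was near the 63.9% (control) and 63.5% (ZcKO) of all genes. Tars, the threonine enzyme, was the one that rose, relative to other transcripts. It had 39.2, 30.3 and 33.6 CPM in control GV and 44.7, 47.1 and 51.6 CPM in control MII, and 33.9, 37.8 and 38.3 CPM in ZcKO GV and 51.4, 52.1 and 57.7 CPM in ZcKO MII libraries. Its log2 change was 0.62 in control (SE 0.19, edgeR adjusted p = 0.00839) and 0.70 in ZcKO (SE 0.19, edgeR adjusted p = 0.00399). With spike-in scaling the Tars changes were -1.09 and -1.65, and without the filter on low counts the Tars call was lost in both genotypes, at edgeR adjusted p = 0.121 and 0.0501.

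Aars, the alanine enzyme, fell most among the members with 10 CPM or more in control. It had 26.04, 29.55 and 28.1 CPM in control GV and 1.64, 4.23 and 5.16 CPM in control MII libraries. In ZcKO Aars had 36.1, 27.3 and 24.3 CPM at GV and 7.66, 4.84 and 8.55 CPM at MII. The Aars log2 change was -2.79 in control (SE 0.35, edgeR adjusted p = 1.88e-06) and -1.93 in ZcKO (SE 0.33, edgeR adjusted p = 6.33e-05). Exons of Aars share 14.3% of their bases with Exosc6 on the same strand, so part of its counts is uncertain. Sars (serine), Cars (cysteine) and Gars (glycine) fell in both genotypes as well, with log2 changes from -1.36 to -0.72, while Hars (histidine) and Nars did not pass the test in either. In control the Gars call was lost without GV library 3 (edgeR adjusted p = 0.0637) or MII library 2 (0.0533), and the Cars call without GV library 3 (0.0519). Of the 5 genes with the letters of the C/EBP-ATF element, Aars and Gars fell, Tars rose, Iars did not pass the test and Yars was too low to test.

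The phenylalanine enzyme is built from the products of Farsa and Farsb in equal number, and their transcripts took different courses. Farsa, the alpha subunit, had 61.9, 54.6 and 52.8 CPM in control GV and 22.1, 12.1 and 16.3 CPM in control MII libraries, a log2 change of -1.58 (SE 0.27, edgeR adjusted p = 5.21e-05). In ZcKO Farsa had 53.5, 60.1 and 83.0 CPM at GV and 14.2, 15.1 and 7.84 CPM at MII, a log2 change of -2.25 (SE 0.28, edgeR adjusted p = 1.79e-06). Farsb had 190 to 296 CPM in control GV and 222 to 314 CPM in control MII, with a log2 change of 0.33 (SE 0.25, edgeR adjusted p = 0.242), and in ZcKO the change was -0.0027 (SE 0.25). The Farsa to Farsb count ratio, a pair chosen after its values were seen, was 0.178 to 0.288 in control GV, 0.245 to 0.370 in ZcKO GV, 0.0544 to 0.0703 in control MII and 0.0426 to 0.0728 in ZcKO MII libraries, so the stages did not overlap.

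**Figure D3:**
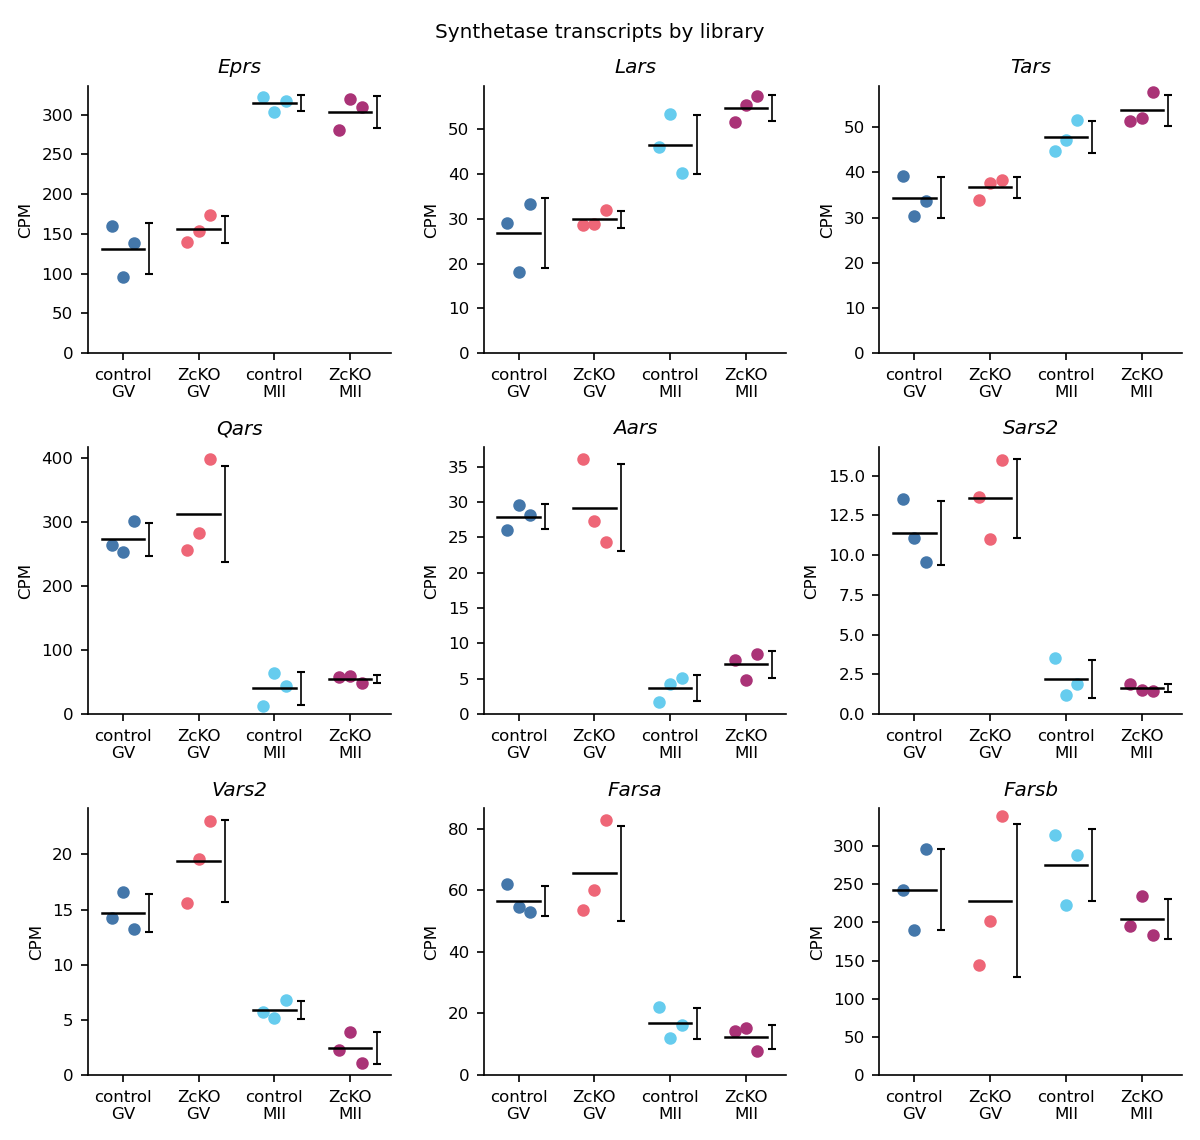
Level in CPM (vertical axis, from 0) of 9 synthetase transcripts in each library of the 4 groups (horizontal axis); points are libraries, lines are group means and bars 1 SD of 3 libraries. Eprs, Lars and Tars are higher at MII in CPM (spike-in scaling turns this direction), Qars, Aars, Sars2, Vars2 and Farsa are lower with no overlap between stages, and Farsb overlaps.

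Among the 15 mitochondrial synthetases listed, 13 passed the filter (Hars2 and Nars2 did not). In each genotype 0 rose, 8 fell and 5 did not pass the test. The called share of 61.5% was near the 63.9% (control) and 63.5% (ZcKO) of all genes. Falls alone made up 33.8% and 34.0% of all genes. The 8 were Aars2, Cars2, Ears2, Rars2, Sars2, Tars2, Vars2 and Yars2, the mitochondrial enzymes for alanine, cysteine, glutamate, arginine, serine, threonine, valine and tyrosine. The median log2 change over the 13 was -1.35 in control and -1.59 in ZcKO. Fars2, the phenylalanine enzyme, did not pass the test, at 81.0 ± 6.35 CPM in control GV and 82.8 ± 12.4 CPM in control MII (mean ± SD, n = 3). Iars2, Lars2, Mars2 and Wars2 did not pass either, and Iars2 shares 22.9% of its exon bases with Rab3gap2 on the opposite strand.

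Sars2 had 13.5, 11.1 and 9.58 CPM in control GV and 3.54, 1.21 and 1.90 CPM in control MII libraries. In ZcKO it had 13.7, 11.02 and 16.0 CPM at GV and 1.92, 1.51 and 1.43 CPM at MII. The Sars2 log2 change was -2.17 in control (SE 0.40, edgeR adjusted p = 0.000117) and -2.90 in ZcKO (SE 0.43, edgeR adjusted p = 1.24e-05), with no overlap between stages. Aars2, which was low at GV, had 50 counts in all over the ZcKO GV libraries and 0 in ZcKO MII. With a floor of 3 counts over the group, it was at least 14.8-fold lower at MII, a bound that covers counting error only. The medians above are the same with Aars2 at this bound.

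Calls that differed between genotypes were few. Eef1e1 and Vars, the cytosolic valine enzyme, were called in control alone, and Wars, the tryptophan enzyme, in ZcKO alone, but the difference of the 2 stage changes was not called for any of the 3. Vars was low, at 5.41, 4.22 and 0.43 CPM in control GV, and its groups overlapped. With Aimp1 left out, 34 members were tested with edgeR for the difference of the stage changes and 0 were called, against 1 gene of all 11607 (0.00862%). At an unadjusted p under 0.05 there were 2 members (5.88%), Wars and Vars2, against 608 of all genes (5.24%). DESeq2 and edgeR without the filter called 0 members other than Aimp1.

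Vars2 had the largest such difference after Aimp1 among members with 10 CPM or more. It had 14.2, 16.6 and 13.2 CPM in control GV, 15.6, 19.6 and 23.0 CPM in ZcKO GV, 5.72, 5.13 and 6.79 CPM in control MII and 2.30, 3.93 and 1.07 CPM in ZcKO MII libraries. Vars2 fell by 1.17 in control (SE 0.33, edgeR adjusted p = 0.00432) and fell by 2.80 in ZcKO (SE 0.37, edgeR adjusted p = 3.88e-06) on the log2 scale. The difference of these changes was -1.63 (SE 0.50), with edgeR adjusted p = 0.875, and was not called. Lars2 was next, at -1.13 (SE 1.14, edgeR adjusted p = 0.910).

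Between genotypes at GV the comparison is the one that chose Aimp1, and the values of the other members are given as a description. In this contrast edgeR called 1 of the 35 members that passed the filter, Aimp1, and 9 of 10911 genes (0.0825%); the choice of Aimp1 fixed the members' count, and nothing is read from it. The other 34 had log2 differences from -0.54 (Wars2) to 1.45 (Lars2), with a median of 0.13 against 0.012 for all genes. Of the 34, 27 were positive and 7 negative, against 5671 and 5240 of all genes. At an unadjusted edgeR p under 0.05 there were 0 of the 34. In 2 of them, Tars2 and Iars2, all ZcKO libraries lay above all control libraries, at log2 differences of 0.32 (SE 0.28) and 0.75 (SE 0.43). The share of all genes with such a separation was not counted, so nothing is read from it. The 8 synthetases of the complex that AIMP1 joins stayed within -0.23 and 0.28, and Aimp2 and Eef1e1 at 0.08 and -0.22. Without control GV library 1, 2 or 3, or without ZcKO GV library 2, no member was called, at Aimp1 log2 differences of 1.82 to 2.05. Aimp1 stayed called without ZcKO GV library 1 or 3. These fits use the GV libraries that chose Aimp1, so nothing is read from these calls either.

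Lars2, the mitochondrial leucine enzyme, had the largest spread of any member at GV. It had 110, 214 and 140 CPM in control GV and 999, 223 and 54.0 CPM in ZcKO GV libraries, so ZcKO library 1 was the highest and ZcKO library 3 the lowest of the 6. Its log2 difference was 1.45 with an SE of 0.94. The share of gene counts in the ribosomal RNA gene model CT010467.1 was 2.80, 6.57 and 3.83% in control GV and 11.1, 4.45 and 1.17% in ZcKO GV, with ZcKO library 1 the highest and library 3 the lowest of the 6 here too. At MII that share was 1.25 to 2.55% and Lars2 was 120 to 256 CPM, and the part of ribosomal RNA in the Lars2 counts was not tested beyond a search for shared bases. Annotated Lars2 transcripts and CT010467.1 shared no run of 25 bases, and the longest shared run was 13 bases. This model holds 1849 bases, so the search does not cover other ribosomal RNA sequences, and nothing is concluded from it. Summed over all members, control GV had 2325 ± 203 and ZcKO GV 2781 ± 315 CPM, and without Lars2 the sums were 2171 ± 250 and 2355 ± 534 CPM (mean ± SD, n = 3).

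**Figure D4:**
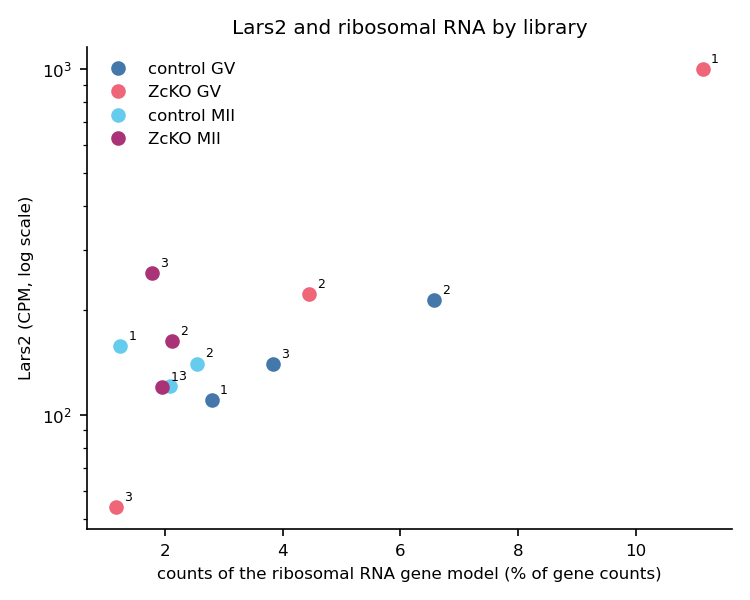
Lars2 level (vertical axis, CPM, log scale) against the share of gene counts in the ribosomal RNA gene model (horizontal axis, %) in the 12 libraries, numbered by replicate and coloured by group. ZcKO GV library 1, at 11.1% and 999 CPM, and ZcKO GV library 3, at 1.17% and 54.0 CPM, mark the ends of both axes.

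At MII the genotypes were compared in 27 members that passed the filter, and 0 were called, as were 0 of 9677 genes (0%). The floxed gene Pik3c3 itself was not called, at a log2 difference of -2.19 (SE 0.39, edgeR adjusted p = 0.530). The lack of calls at MII therefore does not show that the genotypes were alike. DESeq2 also called 0 members, and at an unadjusted p under 0.05 edgeR had 4 members (14.8%), Sars higher in ZcKO and Farsb, Wars and Vars2 lower, against 872 of all genes (9.01%). The largest values in members with 10 CPM or more were those of Wars, Sars and Farsa, and none is a call. Wars had 60.8, 47.7 and 66.3 CPM in control and 44.8, 36.3 and 24.2 CPM in ZcKO, with every ZcKO library below the control libraries (log2 -0.78, SE 0.24, edgeR adjusted p = 0.530). Sars had 22.4, 45.9 and 33.7 CPM in control and 51.4, 46.0 and 55.6 CPM in ZcKO, with every ZcKO library above, the nearest pair at 45.9 and 46.0 (log2 0.57, SE 0.24, edgeR adjusted p = 0.546). Farsa overlapped between genotypes (log2 -0.49, SE 0.34, edgeR adjusted p = 0.649). The sums over all members at MII were 1732 ± 131 CPM in control and 1792 ± 89.3 CPM in ZcKO.

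**Figure D5:**
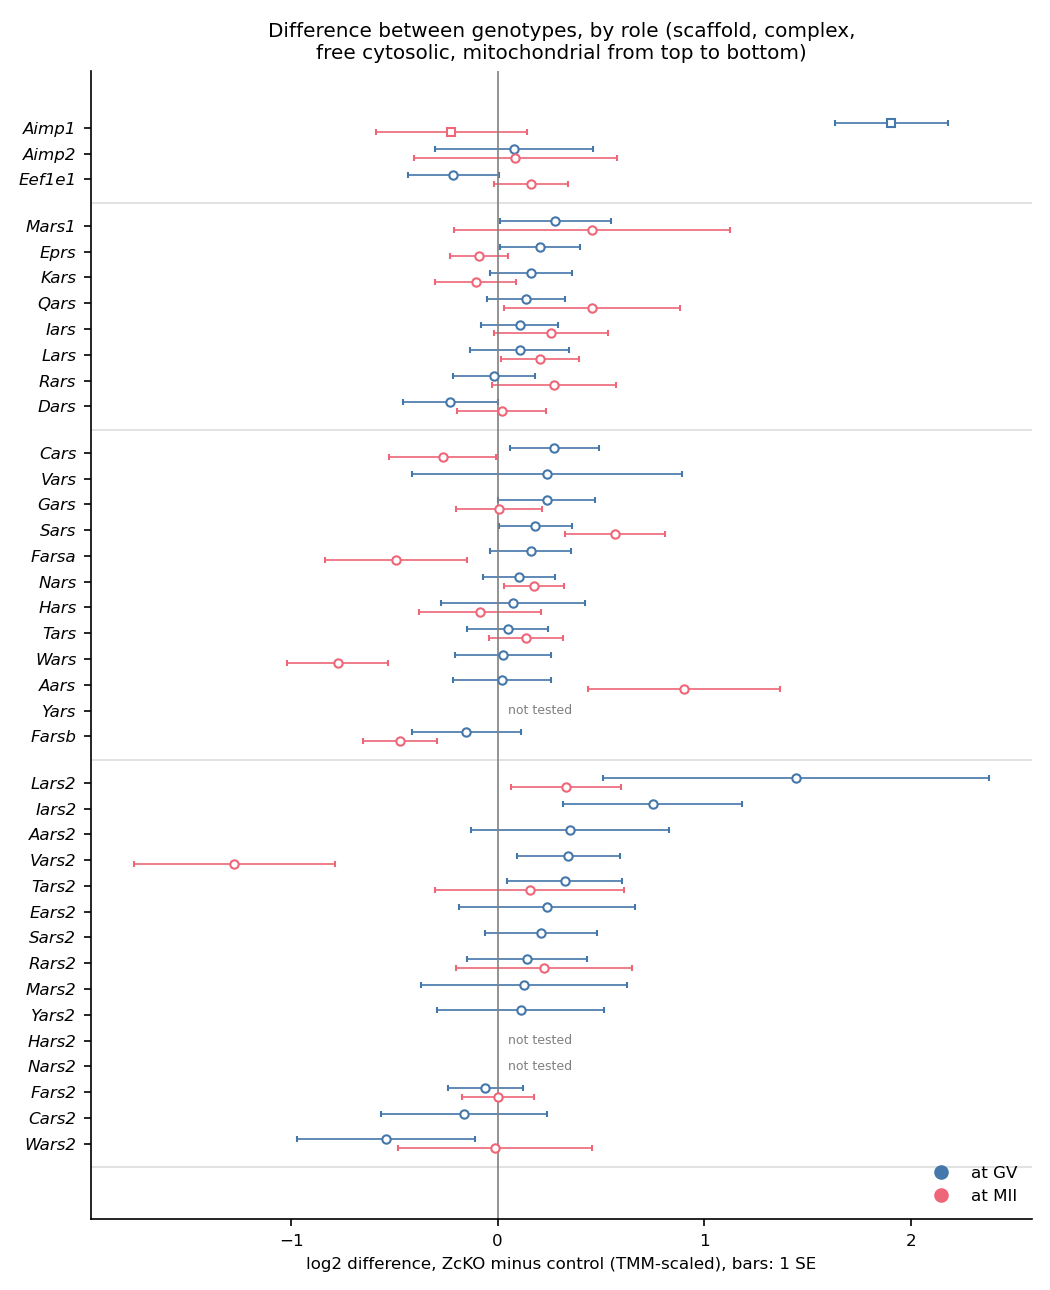
Log2 difference between genotypes (horizontal axis, ZcKO minus control, TMM-scaled, bars 1 SE) of each member (vertical axis) at GV and at MII, 3 libraries per group. Open squares mark Aimp1, given without a test at GV, where the value that chose it lies at 1.91; at MII Vars2 at -1.28 and Wars at -0.78 lie lowest and none passed the test.

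Genes that work beside the synthetases were followed from lists of other aminoacyl-tRNA formation, elongation factors, tRNA maturation and export, and the response to uncharged tRNA. Between genotypes their log2 differences ran from -0.85 (Impact) to 0.76 (Thg1l) at GV and from -0.76 to 0.93 at MII, and did not pass the edgeR test. From GV to MII 63.9% of all genes were called in control and 63.5% in ZcKO, and nothing is read from the counts of these short lists. Of 9 tested elongation factors, 2 rose and 5 fell in control, and 1 rose and 5 fell in ZcKO. Eef1d, an exchange factor of the cytosolic elongation factor, fell by 4.18 in control (SE 0.25) and fell by 4.54 in ZcKO (SE 0.26) on the log2 scale, and Gfm1, a mitochondrial elongation factor, had changes of 1.23 (SE 0.22) and 0.998 (SE 0.22). Of 10 tested genes of tRNA maturation and export, 2 rose and 6 fell in each genotype. Rtcb, the tRNA ligase, had changes of -3.62 (SE 0.35) and -3.72 (SE 0.36) and Trnt1, which adds the CCA end, had changes of 1.37 (SE 0.22) and 1.40 (SE 0.22).

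In the response to uncharged tRNA, 1 of 10 tested genes rose and 5 fell in control, and 2 rose and 4 fell in ZcKO. Phgdh fell most in this list, with log2 changes of -3.80 in control (SE 0.34) and -5.60 in ZcKO (SE 0.42). Impact had changes of 0.36 (SE 0.44) and 1.90 (SE 0.46) and was called in ZcKO alone. Atf4 fell by 1.94 in control (SE 0.30) and fell by 2.21 in ZcKO (SE 0.30), and Ddit3, a factor downstream of it, had changes of -2.93 (SE 0.25) and -3.03 (SE 0.25). Eif2ak4, which encodes the kinase GCN2 that senses uncharged tRNA, had changes of 0.82 (SE 0.20) and 0.74 (SE 0.20). Ddit3 overlaps Mars1 in part, so counts in the shared bases are uncertain for both. Of 9 tested genes of other aminoacyl-tRNA formation, 2 rose and 4 fell in control and 1 rose and 5 fell in ZcKO, led in control by Pstk, a kinase of selenocysteine tRNA, at -2.75 (SE 0.39). The rises named here are relative to other transcripts, as for the synthetases.

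The 3′ ends were searched because the cytoplasmic polyadenylation element lengthens poly(A) tails during maturation. In the last 100 bases of the 3′ UTR (GENCODE vM21), the letters TTTTAT or TTTTAAT were present in 6 of the 32 members with such a window (18.75%), against 17.8% of 19910 genes. Among all tested genes the element was in 30.84% of those higher at MII in control and in 10.05% of those lower. The 6 were Lars, which rose, Aars, Farsa and Sars, which fell, and Kars and Mars2, which did not pass the test. Eprs and Tars, the other risers, had a polyadenylation signal (AATAAA) and no match to the element. The 30 bases around the match are shown for Kars and for Farsa, in which element and signal are both in view, with both in capitals.
Kars, chr8:111993455-111993484 (GRCm38), minus strand: tctTTTTATtcctcgttaccaAATAAAtca
Farsa, chr8:84869201-84869230 (GRCm38), plus strand: aggccagctgTTTTAATAAAgtgggcacat
In Farsa the element and the signal overlap. In Kars the element starts 18 bases before the signal.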

How the data were processed

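The values are raw counts of reads, deposited as 1 table with 92 ERCC spike-ins and 55291 genes. fastp, HISAT2, featureCounts and build mm10 are named per the submitters' processing notes, and for annotation release, strand setting and multi-mapping reads nothing is given in the sources used here. Of 18 columns, 12 were used and 6 match no label and were not used; the 6 embryo samples (2-cell) were not analysed here. Gene totals were 2609783 to 4696626 counts, and CPM are scaled to them. Without molecular identifiers, bounds from counts cover counting error only.

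The main test was edgeR 4.0.16 (R 4.3.3) (filterByExpr, TMM, robust glmQLFit and glmQLFTest, Benjamini-Hochberg adjustment over all genes tested, called at 0.05). Genotypes were compared within each stage (6 libraries); stage changes and their difference came from 1 fit of 12 libraries. It was checked on simulated data with known changes. In simulated counts for the GV genotype comparison (10636 genes) it recovered 36% of changes of 1 and 96% of changes of 2 on the log2 scale, for MII (9412 genes) 50% and 94%, and for the control stage change (11168 genes) 48% and 96%. Each simulated table had a small, fixed set of changed genes, all with higher counts. In the real data 0% of genes were called between genotypes at MII and 63.9% in the control stage change. Recovery depends on that share, so these percentages may not hold for the real tables. Alternatives were DESeq2 1.42.0, spike-in totals as library sizes, no filter, the replicate number as a block, other sets of libraries in the fit, and leaving out each library.

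The members and lists were chosen with earlier results of these data known. Named with every library were Aimp1 and called members (the 4 largest changes each way with 10 CPM or more where over 8 were called; where none was called, the 3 largest); Farsa and Farsb at both stages were added after their values were seen. The series calls the replicates biological, but no label ties libraries to animals, so p-values may measure a narrower spread. An exact permutation test of 3 against 3 cannot go below p = 0.1. The smallest chi-square per degree of freedom between replicates was 4.87, so none was a repeat of another.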

Additional observations from a re-analysis of the deposited data

Results flagged for a closer look

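With TMM scaling Aimp1 lay on opposite sides between stages in the 2 genotypes. All 3 control MII libraries (8.15 to 14.5 CPM) lay above the control GV libraries (5.75 to 7.45 CPM), and all 3 ZcKO MII libraries (5.703 to 12.6 CPM) lay below the ZcKO GV libraries (20.4 to 28.3 CPM). The ZcKO change minus the control change was -2.14 on the log2 scale (SE 0.46). Scaled to the spike-ins the control change was -0.90, so both genotypes were then lower at MII. The GV libraries that chose Aimp1 are part of this difference, so it is given as a description, and a test of it would not be independent of that choice.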

How the results depend on the processing

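The count of members called at GV ran from 0 to 1 when each library was left out. It was 0 without control GV library 1, 2 or 3 or ZcKO GV library 2. The member called was Aimp1, chosen by these GV libraries, so nothing is read from this count. With spike-in totals as library sizes, members called in the ZcKO stage change rose from 22 to 35. The median log2 change of all genes also moved down under that scaling, so nothing particular to the members is read from this rise. For the difference of the stage changes DESeq2 called 1 and edgeR without a filter called 1, in both Aimp1, whose choice used the same GV libraries, so nothing is read from these. Leaving out each library gave 21 to 23 calls in the control and 22 to 24 in the ZcKO stage change, and 0 at MII and for the difference of the stage changes. Spike-in totals turned Aimp1 in control to -0.90, Eprs to -0.31 in control and -1.22 in ZcKO, Lars to -0.83 and -1.32, and Tars to -1.09 and -1.65. The cause was not tested. The MII difference of Aimp1 ran from -0.49 to 0.0215 over the libraries left out, and was above 0 without control MII library 2 (0.0215) and without ZcKO MII library 3 (0.0035).

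Over all genes, calls at GV were 9, against 28 without the filter, 3 in 1 fit of 12 libraries and 2 to 10 with a library left out. At MII they were 0, against 4 by DESeq2 and 96 without the filter, and for the difference of the stage changes 1, against 5 by DESeq2, 3 with spike-in totals and 18 without the filter.

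Replicate numbers did not pair the samples. Correlations of same-numbered libraries ran from -0.238 to 0.225, and those of differently numbered libraries from -0.397 to 0.417. With the number as a replicate block, the members called were 1 at GV, 0 at MII, 23 in the control and 22 in the ZcKO stage change, and 0 for the difference. A log2 difference of 1 was recovered in under 51% of simulated cases, all in genes with higher counts. The share of changed genes was set by the simulation, and Pik3c3 at MII, at -2.19, was not called in the real data. Smaller genotype differences were therefore often not detectable at this depth, and recovery at low counts was not measured.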
